A study of Mus musculus with 12 samples.

Results

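The comparison described here asks which ribosome-bound transcripts differ in the myenteric plexus of the inflamed distal colon when the neurokinin-2 receptor (NK2) is blocked. It sets 3 DNBS_GR159897 libraries against 3 Saline_GR159897 libraries, chosen by their treatment labels, so 6 of the 12 libraries of the series carry it. All 12 came from C57BL/6 mice of the genotype Sox10::CreERT2+/- / Rpl22tm1.1Psam/J, in which tamoxifen-activated Cre recombinase, expressed from Sox10, switches the ribosomal protein Rpl22 to an HA-tagged form. Every mouse, controls included, ate tamoxifen chow at 400 mg/kg for 2 weeks and then plain chow for 1 week. The NK2 antagonist GR159897 was injected into the abdomen daily over 3 days at 0.5 mg/kg in 0.1% DMSO, from 24 hours before the enema. The enema of 0.1 ml was saline or 5 mg of DNBS (dinitrobenzene sulfonic acid, a hapten that causes colitis) in 50% ethanol, and tissue was taken 48 hours later. The labels give no ethanol for the saline enema, and the effects of DNBS and ethanol cannot be told apart. Ages are not given in the labels, and the DNBS_GR159897 group held 2 females and 1 male against 1 female and 2 males in Saline_GR159897. The 6 libraries of the vehicle arm, Saline_Vehicle and DNBS_Vehicle with 3 each, received 0.1% DMSO alone. They share no library with the antagonist arm, and they enter the fit through a common estimate of the spread.

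Enteric glia surround the neurons of the gut wall and carry Sox10, S100b and Gfap. Neurons release tachykinins such as substance P and neurokinin A, which act on the receptors NK1, NK2 and NK3, the products of Tacr1, Tacr2 and Tacr3. In inflamed tissue, cells of the gut wall make growth factors of the epidermal growth factor family, inhibitors of proteases, matrix glycoproteins and chemokines that attract leukocytes.

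Levels are FPKM, which scale fragments by transcript length and by the library's mapped fragments. They carry no depth, and levels of different genes may be compared per length. A listed 0 is not read as absence, because Tbp, a general transcription factor that cells need, was itself listed at 0 in Saline_GR159897 replicate 3. Changes are log2 fold changes of FPKM + 1, DNBS over saline, with their SE, which understate the change of low genes. A gene passed when the Benjamini-Hochberg adjusted p of limma was below 0.05 over the 12778 genes that reached 1 FPKM in 3 or more libraries. Nothing in the labels says how the mice were housed or processed together, so p-values measure the spread between these libraries.

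DNBS_GR159897 replicate 1 stood apart from the other 5 libraries of the arm, and the fit was therefore run with and without it. The summed level of 16 epithelial markers was 2020 FPKM there, against 17.7 and 32.9 FPKM in DNBS replicates 2 and 3 and between 9.03 and 14.6 FPKM in the saline libraries. Muc2, the mucin of goblet cells, was at 350 FPKM and Epcam, an epithelial adhesion protein, at 183 FPKM in that library, and both stayed below 1 FPKM in the other 5. Its sum of 14 glial markers was 12.3 FPKM, against 372 and 764 FPKM in DNBS replicates 2 and 3 and 862 to 1400 FPKM in saline. The library was thus poor in glial, neuronal and smooth muscle RNA alike: neuronal markers summed to 44.6 FPKM, against 302 to 433 FPKM in the other 5, and smooth muscle markers to 313 FPKM, against 1760 to 4000 FPKM. The labels call the samples glial cells, and in the saline libraries the sum of 10 smooth muscle markers, 1760 to 3250 FPKM, exceeded the glial sum, so RNA of other cell types was present. The RNA was bound to ribosomes and pulled down through HA-tagged Rpl22, so levels also depend on the pull-down. Fewer cells of a type, less RNA per cell and a difference in the pull-down cannot be told apart. Across genes, its log2 levels correlated with those of the saline libraries at Pearson r between 0.388 and 0.496, while DNBS replicates 2 and 3 reached 0.711 to 0.828 with the same libraries and 0.835 with each other. Genes are not independent replicates, so these r describe the libraries only. The share of summed FPKM on loci with an annotated transcript was 22.6% in that library, 56.4% and 64.5% in DNBS replicates 2 and 3, and 75.4% to 95.1% in saline, so a low share cannot be told apart from DNBS in this arm.

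**Figure D1:**
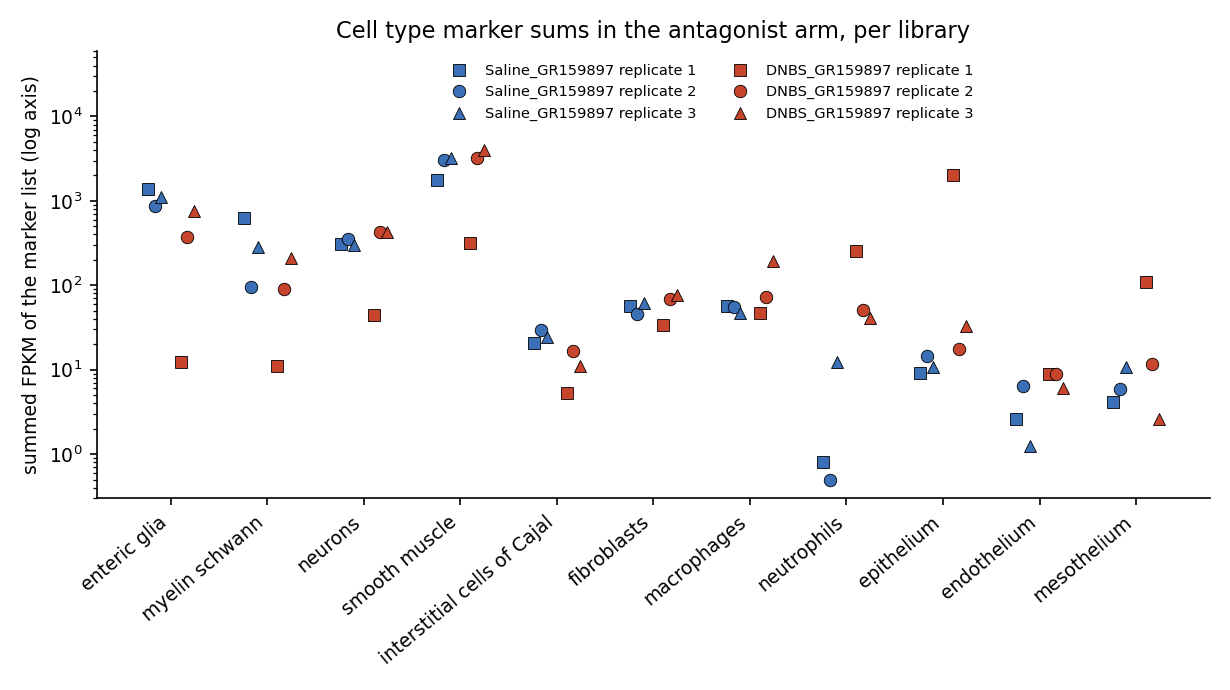
Summed FPKM of the marker genes of 11 cell types (log axis) in each of the 6 libraries of the antagonist arm, saline in blue and DNBS in red, with a symbol per replicate. DNBS_GR159897 replicate 1 (red squares) lies at 2020 FPKM for epithelium and at 12.3 FPKM for enteric glia, and the mesothelium list shares Krt19 with epithelium.

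With all libraries, 176 of 12778 genes passed (1.38%), 49 higher (0.383%) and 127 lower (0.994%) after DNBS. Without DNBS_GR159897 replicate 1, 48 passed (0.376%), 31 higher (0.243%) and 17 lower (0.133%). Both fits held 31 of these genes, 18 higher and 13 lower. Of the 145 genes that passed with all libraries only, all 145 kept their direction without replicate 1. For all 145 the 2 remaining DNBS libraries lay beyond the 3 saline libraries, as they did for 33.6% of all genes. Both had to hold, because the 3 DNBS libraries lay beyond the 3 saline libraries for all 176 genes passing with all libraries. They therefore do not show how far these calls depend on replicate 1. Without replicate 1 the adjusted p of these 145 genes lay between 0.05 and 0.1 for 136. Their median absolute change was then 1.99 on the log2 scale, against 2.18 with all libraries. The other 17 genes passed only without replicate 1, 13 higher and 4 lower. Among those 13, replicate 1 was at or below the highest saline library for 9. The plot of changes with and without that library shows these 3 sets along the diagonal.

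The counts moved with single libraries in both drug arms, and the causes were not tested. All 12 libraries share the estimate of the spread, and leaving out a library of the antagonist arm also changes its group mean and size. The count fell from 176 to 4 without Saline_GR159897 replicate 1, to 4 without replicate 3 and to 79 without replicate 2 of that group. It rose to 604 without DNBS_GR159897 replicate 3 and was 244 without replicate 2. Leaving out a vehicle library gave 21, 50 and 19 for Saline_Vehicle replicates 1, 2 and 3 and 68, 167 and 145 for those of DNBS_Vehicle. With sex as a term 25 genes passed, 24 of them among the 176. Rescaling each library to its annotated total raised the median change of all genes from −0.27 to 0.04, a shift of 0.31, and the calls to 50 higher and 41 lower in place of 49 and 127. Without replicate 1 the median of all genes was −0.12, and the same rescaling gave 40 higher and 20 lower.

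**Figure D2:**
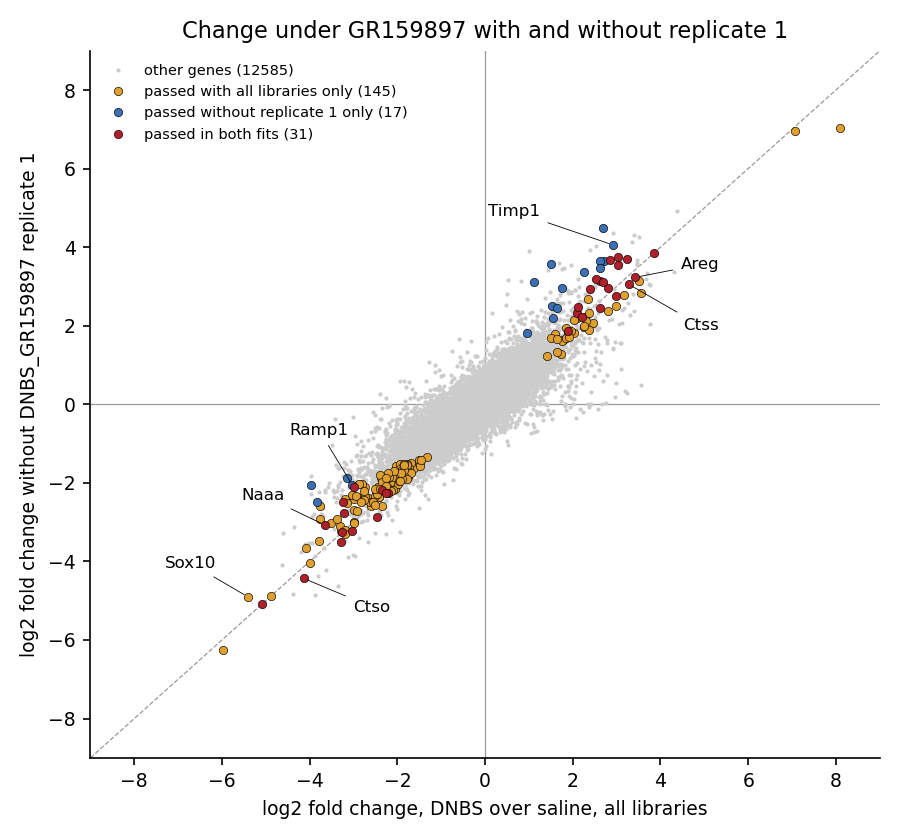
Each point is a gene, with its log2 fold change (DNBS over saline, antagonist arm) from all libraries on the horizontal axis and without DNBS_GR159897 replicate 1 on the vertical axis; colours mark the 31 genes that passed in both fits, the 145 that passed with all libraries only and the 17 that passed without replicate 1 only. Dashed line, equal change. For genes listed at 0 in a whole group the position depends on the 1 FPKM added before the logarithm.

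Areg led the named genes that rose. It encodes amphiregulin, a ligand of the epidermal growth factor receptor, and lies on chromosome 5 at 91139599 to 91148432 (GRCm38, plus strand). Areg was listed at 0.17, 0.65 and 0.87 FPKM in the saline libraries and at 20.3, 15.2 and 11.7 FPKM in DNBS replicates 1, 2 and 3. All 3 DNBS libraries were at least 10 FPKM above the highest saline library, with replicate 1 the highest, and 6.67% of all genes had all 3 DNBS libraries above saline. The change was 3.42 ± 0.39 (limma adjusted p = 0.00528) and 3.23 ± 0.41 without replicate 1 (adjusted p = 0.00701). Areg passed in all 12 fits that leave out a single library, and in all 5 that leave out replicate 1 and another library of the arm. Of the 176 genes only 2 passed in all 12, and the other was the predicted gene Gm2423, listed at 22.6 to 57.6 FPKM in saline and at 0 in all 3 DNBS libraries.

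Plaur, the receptor of urokinase, and Ankrd1 rose in both fits. Plaur (chromosome 7 at 24462484 to 24475968, plus strand) was at 0.19, 3.32 and 0 FPKM in saline and at 7.45, 22.7 and 20.3 FPKM after DNBS. Replicate 1 was the lowest DNBS library and still above all saline libraries. Plaur changed by 3.23 ± 0.62 (limma adjusted p = 0.0373) and by 3.70 ± 0.63 without replicate 1 (adjusted p = 0.0311). Ankrd1, a nuclear ankyrin repeat protein that is a known target of YAP and TEAD, was at 2.99, 0.82 and 5.13 FPKM in saline and at 9.38, 24.3 and 38.4 FPKM after DNBS. The groups did not overlap, and its change was 2.62 ± 0.58 (limma adjusted p = 0.0476) and 3.15 ± 0.55 without replicate 1 (adjusted p = 0.0353). Plaur passed in 6 of the 12 fits without a single library and Ankrd1 only in the fit without DNBS_GR159897 replicate 1; adjusted p reached 0.157 and 0.162 without Saline_GR159897 replicate 1.

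The stretches before the starts of Plaur, Ankrd1 and Pstpip1, a cytoskeletal adaptor of blood cells whose values are given further on, are shown because these genes passed in both fits and hold a match to a motif of AP-1 or TEAD, transcription factors of the stress and Hippo pathways. They are the 250 bases before the start (RefSeq, GRCm38.p6), written 5′ to 3′ on the gene's strand with the match in capitals: chr7:24462233-24462482, plus strand, chr19:36119845-36120094, minus strand, and chr9:56089726-56089975, plus strand.
Plaur: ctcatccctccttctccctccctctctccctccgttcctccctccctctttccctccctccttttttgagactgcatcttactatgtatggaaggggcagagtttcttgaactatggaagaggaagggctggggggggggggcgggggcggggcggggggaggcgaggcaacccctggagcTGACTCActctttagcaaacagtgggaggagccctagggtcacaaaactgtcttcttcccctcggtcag
Ankrd1: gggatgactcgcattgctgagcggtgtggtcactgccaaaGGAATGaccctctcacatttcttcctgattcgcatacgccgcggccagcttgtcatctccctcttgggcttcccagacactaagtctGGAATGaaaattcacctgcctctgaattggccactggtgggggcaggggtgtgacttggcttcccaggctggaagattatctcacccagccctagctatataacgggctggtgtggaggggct
Pstpip1: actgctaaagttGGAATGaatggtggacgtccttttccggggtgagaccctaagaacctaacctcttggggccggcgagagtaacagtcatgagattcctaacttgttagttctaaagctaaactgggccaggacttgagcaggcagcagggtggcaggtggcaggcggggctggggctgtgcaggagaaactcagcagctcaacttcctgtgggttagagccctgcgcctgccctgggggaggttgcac
The AP-1 match TGACTCA begins 69 bases before the start of Plaur, and the TEAD matches GGAATG begin 210 and 123 bases before that of Ankrd1 and 238 bases before that of Pstpip1. The AP-1 motif TGANTCA, on either strand, was in 4.07% of the 8623 promoters of tested genes that the RefSeq table holds, the TEAD motif GGAATG in 10.5% and an NF-kB motif, 3 G, any 5 bases and 2 C, in 62.3%. Among the genes past the threshold in both fits, 10 higher genes had a promoter in the table, of which 1, 2 and 7 held an AP-1, a TEAD and an NF-kB match. Of 9 lower genes, 0, 0 and 7 did. These are matches of letters and not measured sites.

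More genes of the matrix list passed when replicate 1 was left out. All 12 members past the filter, of 16 listed, were higher after DNBS in both fits. With all libraries 2 of 12 passed, Plaur among them, against 1.38% of all genes, and the median change was 1.85, against −0.27 over all genes. Without replicate 1, 6 of 12 passed, against 0.376% of all genes, and the median was 2.52, against −0.12. The list was chosen with earlier results of these data known, so these shares describe its members and are no independent support. Thbs1, which encodes thrombospondin-1 (chromosome 2 at 118111876 to 118127133), was at 0.92, 2.40 and 1.59 FPKM in saline and at 3.95, 30.01 and 24.6 FPKM after DNBS. Replicate 1 was above saline but far below the other DNBS libraries, and the change without it was 3.46 ± 0.41 (limma adjusted p = 0.00609), against 2.62 ± 0.60 with it (adjusted p = 0.0536). Timp1, an inhibitor of metalloproteinases (chromosome X at 20870166 to 20874735), was at 6.96, 15.7 and 29.5 FPKM in saline and at 23.4, 212 and 333 FPKM after DNBS. Replicate 1 lay inside the saline range, and Timp1 passed only without it, at 4.06 ± 0.69 (limma adjusted p = 0.0311, against 0.104 with it). Adamts1, a secreted metalloproteinase, stood at 9.63 to 17.9 FPKM in saline, at 8.66 FPKM in replicate 1 and at 114 and 119 FPKM in replicates 2 and 3. It rose by 2.96 ± 0.37 without replicate 1 (limma adjusted p = 0.00701) and was at 1.76 ± 0.79 with it (adjusted p = 0.207). Tnc, which encodes tenascin C, rose by 2.44 ± 0.45 without replicate 1 (adjusted p = 0.0457) and was at 1.63 ± 0.63 with it (adjusted p = 0.157). The members that did not pass in either fit were Lox, Adamts4, Fn1, Mmp3, Mmp9 and Mmp14, with changes between 0.60 for Mmp14 and 2.61 for Lox without replicate 1. Of the calls, those of Thbs1 held in all 5 fits without a further library, of Adamts1 in 4, of Plaur and Timp1 in 1 and of Tnc in 0.

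Other genes were higher in both fits and passed only when replicate 1 was left out. Tgm1, a transglutaminase, was at 0, 0.04 and 0.03 FPKM in saline and at 0.46, 11.4 and 12.3 FPKM after DNBS, and rose by 3.65 ± 0.41 without replicate 1 (limma adjusted p = 0.00546); with it the change was 2.61 ± 0.69 (adjusted p = 0.0709). The exons of Tgm1 overlap those of Gm49067, and of Thbs1 those of Gm29233, on the opposite strand, and reads of the partners cannot be told apart. Mt2, a metallothionein, rose by 3.56 ± 0.57 without replicate 1 (limma adjusted p = 0.0291), from 149 to 530 FPKM in saline to 4195 and 3976 FPKM in replicates 2 and 3. Replicate 1 was at 56.1 FPKM, below all saline libraries, and with it the change was 1.51 ± 1.32 (adjusted p = 0.511). Mt1 had the like pattern but did not pass, at 3.92 ± 0.85 without replicate 1 (adjusted p = 0.0733) and 2.40 ± 1.21 with it (adjusted p = 0.253). In the oxidative stress list 7 of 11 members past the filter were higher without replicate 1, Mt2 alone passed, and the median was 0.69. With all libraries none of the 11 passed, and the median was −0.03.

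**Figure D3:**
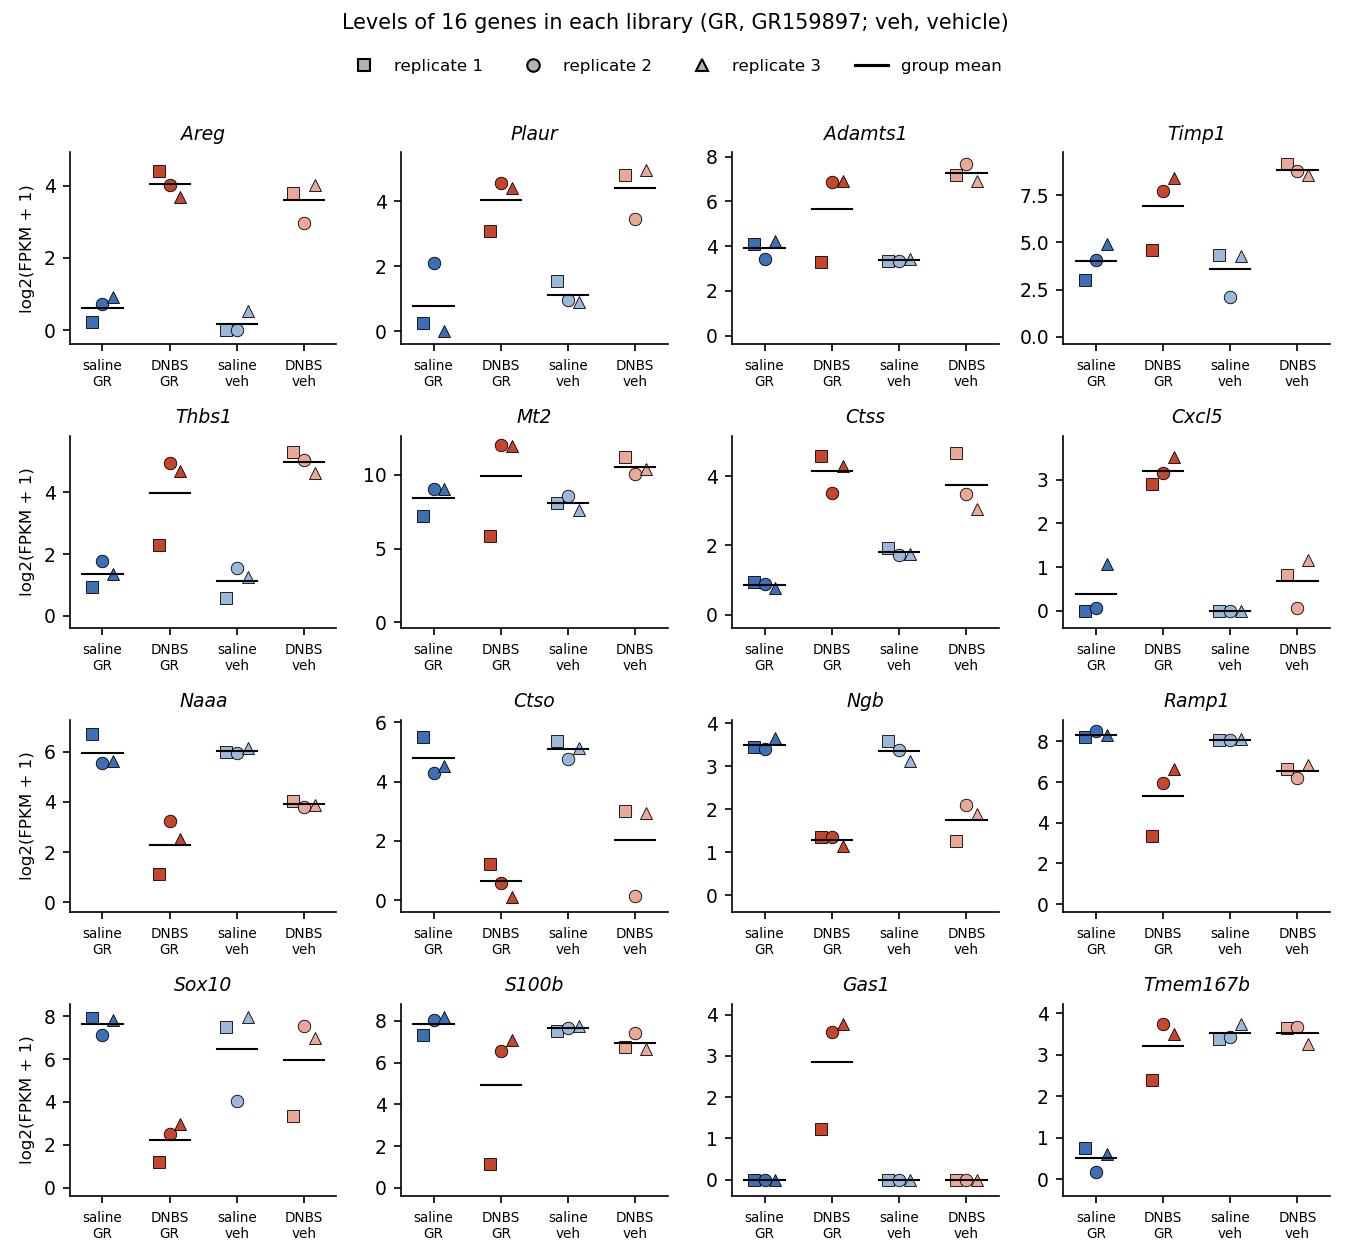
Levels of 16 genes as log2(FPKM + 1) in each of the 12 libraries, with a symbol per replicate and a bar at the group mean (n = 3). In the antagonist arm all DNBS libraries of Areg, Ctss, Naaa, Ctso and Ngb lie beyond the saline libraries, while replicate 1 of Timp1, Adamts1 and Mt2 lies within or below them; Tmem167b is low in the Saline_GR159897 group alone.

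Among immune genes, Ctss and Cxcl5 rose in both fits. Ctss, a lysosomal cysteine protease of antigen-presenting cells, was at 0.93, 0.85 and 0.70 FPKM in saline and at 23.2, 10.6 and 18.8 FPKM after DNBS. The groups lay far apart, and the change was 3.28 ± 0.44 (limma adjusted p = 0.0152) and 3.05 ± 0.46 without replicate 1 (adjusted p = 0.0223). Cxcl5, a chemokine that attracts neutrophils, was at 0, 0.05 and 1.11 FPKM in saline and at 6.42, 7.83 and 10.5 FPKM after DNBS. Its change was 2.80 ± 0.38 (limma adjusted p = 0.0152) and 2.95 ± 0.42 without replicate 1 (adjusted p = 0.0156). Outside the DNBS_GR159897 group, Cxcl5 reached 1 FPKM only in Saline_GR159897 replicate 3 and in DNBS_Vehicle replicate 3, at 1.25 FPKM. It thus met the filter of 3 libraries only through the group where it was high, and its test is no independent support. Beside these genes, neutrophil markers summed to 0.81, 0.49 and 12.2 FPKM in saline and to 256, 51.3 and 41.2 FPKM after DNBS. Macrophage markers summed to 57.2, 54.9 and 47.0 FPKM in saline and to 47.4, 72.6 and 196 FPKM after DNBS. Of the 8 neutrophil markers, 4 or 5 were listed at 0 in each saline library and 0, 0 and 4 in the DNBS libraries, while the part of these cells in the change of Ctss and Cxcl5 was not tested. No neutrophil marker passed the test: all 5 past the filter were higher, with a median of 3.73, and of 3.04 without replicate 1. Among them, Retnlg reached 1 FPKM outside the DNBS_GR159897 group only in DNBS_Vehicle replicates 1 and 2, at 71.5 and 32.4 FPKM. Retnlg thus met the filter of 3 libraries only with the DNBS_GR159897 group counted, and its direction is no independent support. No macrophage marker passed either: 9 of 10 were higher with a median of 0.98, and 10 of 10 with 1.21 without replicate 1. Lymphocyte markers were listed at 0 in DNBS replicates 2 and 3 and summed to 4.89 FPKM in replicate 1.

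Of the 18 cytokine and chemokine genes past the filter, of 21 listed, Cxcl5 was the only member that passed, in either fit. As said above, Cxcl5 met the filter only through the DNBS_GR159897 group. The median change of the list was 1.23, with 14 of 18 higher, and 1.45 without replicate 1, with 13 of 18 higher. Il6 was at 0.03, 0 and 0 FPKM in saline and at 1.38, 0.91 and 5.71 FPKM after DNBS, a change of 1.63 ± 0.41 that did not pass (limma adjusted p = 0.0633), nor did that of 1.83 ± 0.45 without replicate 1 (adjusted p = 0.0894). Il11, of the same cytokine family, was at 1.69 ± 0.42 (adjusted p = 0.062), and at 1.80 ± 0.47 without replicate 1 (adjusted p = 0.0991), and did not pass. Il1b and Cxcl2 were mainly in replicate 1, at 27.5 and 73.4 FPKM, against at most 0.39 and 8.79 FPKM in the other DNBS libraries. The monocyte chemokines Ccl2 and Ccl7 were higher in replicates 2 and 3 and not in replicate 1: Ccl7 stood at 1.08, 18.3 and 107 FPKM, and its change of 4.02 ± 0.96 without replicate 1 did not pass (adjusted p = 0.0874), nor did that of 2.53 ± 1.20 with it (adjusted p = 0.231). Among 7 NF-kB targets, Nfkbiz, a nuclear regulator of NF-kB, passed with all libraries at 2.29 ± 0.44 (adjusted p = 0.0373) and missed without replicate 1 (adjusted p = 0.0781). Laptm5, Mir142hg and Ccr2, named here after their values were seen, passed with all libraries only, at 2.45, 2.99 and 1.51, and were at 2.08, 2.50 and 1.70 without replicate 1. Outside the DNBS_GR159897 group, Ccr2 reached 1 FPKM only in DNBS_Vehicle replicate 1, at 1.06 FPKM. It too met the filter only through the group where it was high.

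The other genes that rose in both fits and are named by rank have varied roles. Fhl3, a LIM domain protein, was below 0.3 FPKM in the saline libraries and at 2.75, 4.54 and 6.04 FPKM after DNBS, a change of 2.09 ± 0.30 (limma adjusted p = 0.0152). Pim1, a kinase induced by cytokines, changed by 2.63 ± 0.38 and Pstpip1 by 2.22 ± 0.33 (both adjusted p = 0.0152). Snhg15, a host transcript of small nucleolar RNA, was at 1.31 to 1.99 FPKM in saline and at 15.9 to 26.8 FPKM after DNBS, a change of 2.98 ± 0.44 (adjusted p = 0.0152). Without replicate 1 the changes of these 4 genes were 2.33, 2.44, 2.21 and 2.76, and all passed, with adjusted p from 0.0065 for Fhl3 to 0.0311. Exons of Pim1 overlap Gm26885 on the opposite strand, and those of Snhg15 hold Snora9. Ctss, Fhl3, Pim1, Pstpip1 and Snhg15 missed the threshold without Saline_GR159897 replicate 1 or 3 (limma adjusted p from 0.0647 to 0.0741) and passed in the other 10 fits without a single library. Cxcl5 missed it only without Saline_GR159897 replicate 1 (adjusted p = 0.0716).

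Naaa and Ctso were among the genes that fell in both fits. Naaa, the lysosomal amidase of palmitoylethanolamide (chromosome 5 at 92257659 to 92278170), was at 103, 45.4 and 49.0 FPKM in saline and at 1.16, 8.43 and 4.80 FPKM after DNBS. Every DNBS library was more than 30 FPKM below every saline library, and replicate 1 was the lowest. The change was −3.66 ± 0.54 (limma adjusted p = 0.0152) and −3.07 ± 0.41 without replicate 1 (adjusted p = 0.00948). Ctso, a cathepsin (chromosome 3 at 81932601 to 81956725), was at 44.7, 18.6 and 22.2 FPKM in saline and at 1.35, 0.51 and 0.08 FPKM after DNBS. Replicate 1 was the highest of the DNBS libraries here. The change was −4.14 ± 0.68 (limma adjusted p = 0.025) and −4.43 ± 0.75 without replicate 1 (adjusted p = 0.0311). Slc27a1, a fatty acid transporter, changed by −3.03 ± 0.50 (limma adjusted p = 0.025) and by −3.22 ± 0.54 without replicate 1 (adjusted p = 0.0311). Ctso passed in 9 of the 12 fits without a single library and in 0 of the 5 without replicate 1 and another library, and Naaa in 10 and in 4.

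Ngb and Ramp1 were lower in all 3 DNBS libraries. Ngb encodes neuroglobin, an oxygen-binding protein of neurons (chromosome 12 at 87097531 to 87102539), and was at 9.91, 9.48 and 11.6 FPKM in saline and at 1.54, 1.57 and 1.20 FPKM after DNBS. The change was −2.22 ± 0.34 (limma adjusted p = 0.017) and −2.25 ± 0.36 without replicate 1 (adjusted p = 0.0297). Ramp1, a subunit of the receptor of calcitonin gene-related peptide (chromosome 1 at 91179822 to 91225196), was at 293, 363 and 313 FPKM in saline and at 9.11, 60.8 and 97.8 FPKM after DNBS. The groups did not overlap, but Ramp1 passed only without replicate 1, at −2.05 ± 0.35 (limma adjusted p = 0.0311), against −3.03 ± 0.71 with it (adjusted p = 0.0563). Neuronal markers, given beside these genes, summed to 308, 354 and 302 FPKM in saline and to 44.6, 433 and 433 FPKM after DNBS, so their sum was higher in DNBS replicates 2 and 3 than in saline. None of the 13 neuronal markers past the filter passed, with medians of −0.45 and, without replicate 1, 0.24. Scg3, a granin of secretory vesicles, passed only without replicate 1, at −1.87 ± 0.34 (limma adjusted p = 0.0443), against −3.15 ± 0.82 with it (adjusted p = 0.0665). Cartpt, a neuropeptide, also passed only without it, at 3.11 ± 0.53 (adjusted p = 0.0311), against 1.12 ± 1.24 (adjusted p = 0.613). Scg3 and Cartpt belong to none of the lists and were named here after their values were seen. Stmnd1, Tekt4 and Ccpg1os, named by rank, fell in both fits from 3.19 to 11.8 FPKM in saline to at most 1.81 FPKM after DNBS; Stmnd1 was listed at 0 in all 3 DNBS libraries.

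The glial genes were lower after DNBS, most of all in replicate 1. Sox10, the transcription factor that marks enteric glia and drives the Cre recombinase (chromosome 15 at 79154908 to 79165240), was at 239, 141 and 228 FPKM in saline and at 1.3, 4.63 and 6.79 FPKM after DNBS. All 3 DNBS libraries were more than 130 FPKM below the lowest saline library. The change was −5.41 ± 1.13 with all libraries (limma adjusted p = 0.0395) and −4.90 ± 1.34 without replicate 1, which did not pass (adjusted p = 0.118). In the vehicle arm Sox10 spread widely within both groups, and that spread enters the SE of both fits. Its part in the missed call was not tested. A limma fit of the 6 libraries of the antagonist arm alone, which still holds replicate 1, gave an adjusted p of 0.0386 for Sox10. S100b, a calcium-binding protein of glia, was at 157, 265 and 288 FPKM in saline and at 1.17, 94.0 and 135 FPKM after DNBS, so that the groups did not overlap. Its change was −2.92 ± 1.16 (adjusted p = 0.165) and −1.02 ± 0.39 without replicate 1 (adjusted p = 0.216), and it did not pass.

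Gfap overlapped between the groups with and without replicate 1. It encodes a glial intermediate filament protein and was at 323, 89.8 and 152 FPKM in saline and at 0.90, 79.7 and 201 FPKM after DNBS, a change of −2.40 ± 1.39 and of −0.37 ± 0.60 without replicate 1 (limma adjusted p = 0.322 and 0.802). Of 13 glial markers past the filter, of 15 listed, 12 were lower in both fits. Only Sox10 passed, with all libraries, and the median change moved from −2.40 to −0.89 without replicate 1. Erbb3, the neuregulin receptor of glia, was lower in all 3 DNBS libraries, at 5.52, 9.31 and 9.06 FPKM against 24.7 to 31.5 FPKM in saline, and did not pass (−1.67 ± 0.45, adjusted p = 0.074; −1.46 ± 0.44 without replicate 1, adjusted p = 0.133). In the myelin list of 8, 2 genes fell with all libraries: Mbp, myelin basic protein, at −2.51 ± 0.44 (adjusted p = 0.0316), and Mal, a myelin proteolipid, at −2.88 ± 0.64 (adjusted p = 0.0476). Without replicate 1 they were at −2.33 and −2.02 and did not pass (adjusted p = 0.0624 and 0.0673). The reactive glia list had 10 of 13 members higher without replicate 1, with a median of 1.07, and Timp1 alone passed; with all libraries 9 of 13 were higher, the median was 0.73 and none passed.

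Of the 5 tachykinin genes past the filter, Tacr3 alone passed, and with all libraries only. Tacr2, the target of GR159897, was at 0.30, 1.23 and 2.39 FPKM in saline and at 0.08, 2.05 and 1.95 FPKM after DNBS, a change of −0.01 ± 0.63, and of 0.49 ± 0.65 without replicate 1. Tacr1 stayed at or below 2.38 FPKM in the 6 libraries. Tacr3, the NK3 receptor, was at 9.69, 4.33 and 5.01 FPKM in saline and at 0, 1.25 and 0.64 FPKM after DNBS. It fell by 2.18 with all libraries (limma adjusted p = 0.0382) and was at −1.86 without replicate 1, which did not pass (adjusted p = 0.0894). Tac1, the precursor of substance P and neurokinin A, was at 10.98, 23.02 and 20.97 FPKM in saline and at 10.85, 53.9 and 45.6 FPKM after DNBS. Its change of 0.75 ± 0.72, and of 1.45 ± 0.64 without replicate 1, did not pass.

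Genes of antigen presentation and the interferon response were mostly lower without passing the test gene by gene. All 10 antigen presentation genes past the filter, of 14 listed, were lower in both fits, with medians of −2.31 and, without replicate 1, −1.83, and none passed. H2-K1, a class I heavy chain, was at 451, 199 and 716 FPKM in saline and at 15.5, 120 and 120 FPKM after DNBS (−2.69 ± 0.78, limma adjusted p = 0.0839; −1.73 ± 0.49 without replicate 1, adjusted p = 0.116). B2m, its light chain, was at 1286, 357 and 1765 FPKM in saline and at 10.7, 92.4 and 287 FPKM after DNBS (−3.78 ± 1.12, limma adjusted p = 0.0903; −2.51 ± 0.92 without replicate 1, adjusted p = 0.205). In both genes all DNBS libraries were below all saline libraries, as was the case for 17.6% of all genes in this direction. Of 14 interferon response genes past the filter, of 19 listed, 13 were lower, with medians of −1.56 and −1.26. Only Oasl2 passed, with all libraries, at −2.55 ± 0.48 (adjusted p = 0.0369, and 0.0696 without replicate 1).

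**Figure D4:**
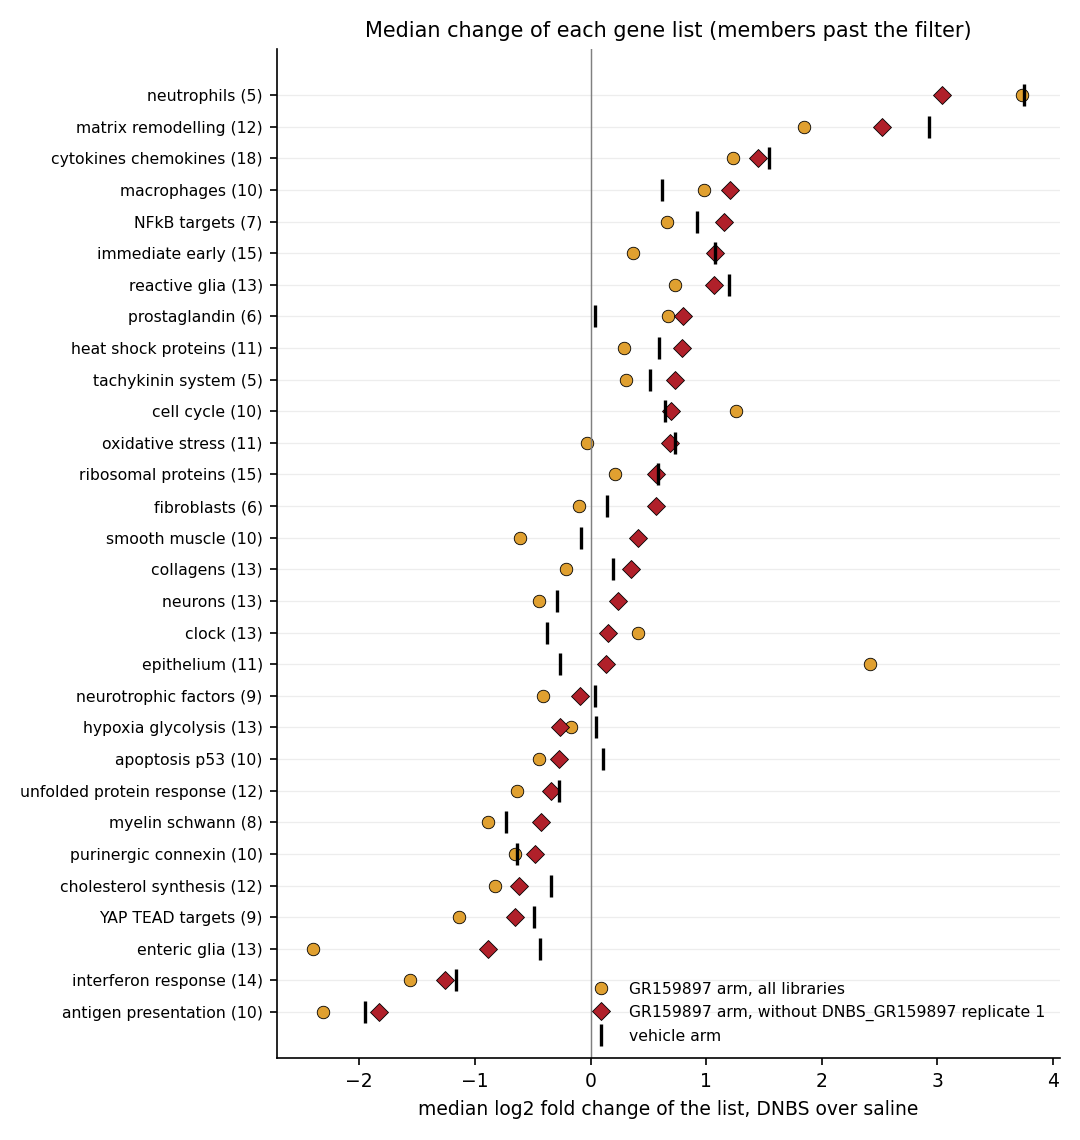
Median log2 fold change (DNBS over saline) of each gene list with at least 5 members past the filter, whose number stands in brackets; circles, antagonist arm with all libraries; diamonds, antagonist arm without DNBS_GR159897 replicate 1; ticks, vehicle arm. Matrix remodelling moves from 1.85 to 2.52, enteric glia from −2.40 to −0.89 and epithelium from 2.42 to 0.13 when replicate 1 is left out.

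The remaining lists held few calls. All 15 cytosolic ribosomal protein genes were higher without replicate 1, with a median of 0.57, and 11 of 15 with all libraries, with a median of 0.21; none passed. Rpl22, the gene that carries the tag, was at 1.85, 7.21 and 8.38 FPKM in saline and at 14.1, 16.7 and 21.8 FPKM after DNBS and did not pass (1.6 ± 0.46, limma adjusted p = 0.0834; 1.73 ± 0.49 without replicate 1, adjusted p = 0.115). Of 15 immediate early genes 11 were higher without replicate 1, with a median of 1.08, and 10 with all libraries, with a median of 0.37. Of 11 heat shock proteins 7 were higher without replicate 1, with a median of 0.79, and 8 with all libraries, with a median of 0.29. No member of these 2 lists passed in either fit. Ankrd1 was the only one of 9 members of the YAP and TEAD list to pass. That list names the factors themselves, such as Tead1, beside their targets. Its median was negative, at −1.14 and −0.65. Cholesterol synthesis genes had 10 of 12 members lower, with a median of −0.83, and 9 of 12 without replicate 1, with a median of −0.62. The smooth muscle markers had a median of −0.61, and of 0.41 without replicate 1, with Acta2 at 47.4 FPKM in that library. The epithelial markers moved from 2.42 to 0.13 and the cell cycle genes from 1.26 to 0.70. None of the genes of these last 4 lists passed in either fit. Medians of the lists for purinergic signalling and connexins, neurotrophic factors, apoptosis and p53, the unfolded protein response, hypoxia and glycolysis, collagens, the clock, prostaglandins, complement, fibroblasts, interstitial cells of Cajal, endothelium and mesothelium lay between −0.65 and 0.80 in both fits, and no member passed. Lymphocyte and mast cell markers had no member past the filter.

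The vehicle arm gives the same contrast in 6 other libraries. In the fit without DNBS_GR159897 replicate 1, 176 genes passed there (1.38%), 115 higher and 61 lower, against 41 (0.321%) with all libraries. The 2 arms shared 31 calls, which are 64.6% of the 48 calls of the antagonist arm and 17.6% of the 176 of the vehicle arm, and all 31 went in the same direction. Both contrasts use the same estimate of the spread of each gene, so the shared calls do not come from independent tests. Of the 48 genes 45 had the same sign in the vehicle arm, against 71.3% of all 12777 genes that both arms hold. Across these genes the changes of the arms correlated at Pearson r = 0.59, a description across genes that are not independent. Areg changed by 3.42 in the vehicle arm (limma adjusted p = 0.00141) and Timp1 by 5.26 (adjusted p = 0.00287). The matrix list had a median of 2.93 there, with 8 of 12 passing, and 5 of 12 with all libraries. Naaa, Ngb and Ramp1 fell there as well, by 2.13, 1.61 and 1.53, while Ctso was at −3.06 (adjusted p = 0.0501) and Sox10 at −0.54 (adjusted p = 0.869). With all libraries Naaa, Ngb and Ramp1 had the same changes in the vehicle arm and did not pass (limma adjusted p = 0.134, 0.0738 and 0.398). Areg and Timp1 passed there in that fit too (limma adjusted p = 0.00916 and 0.0343).

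**Figure D5:**
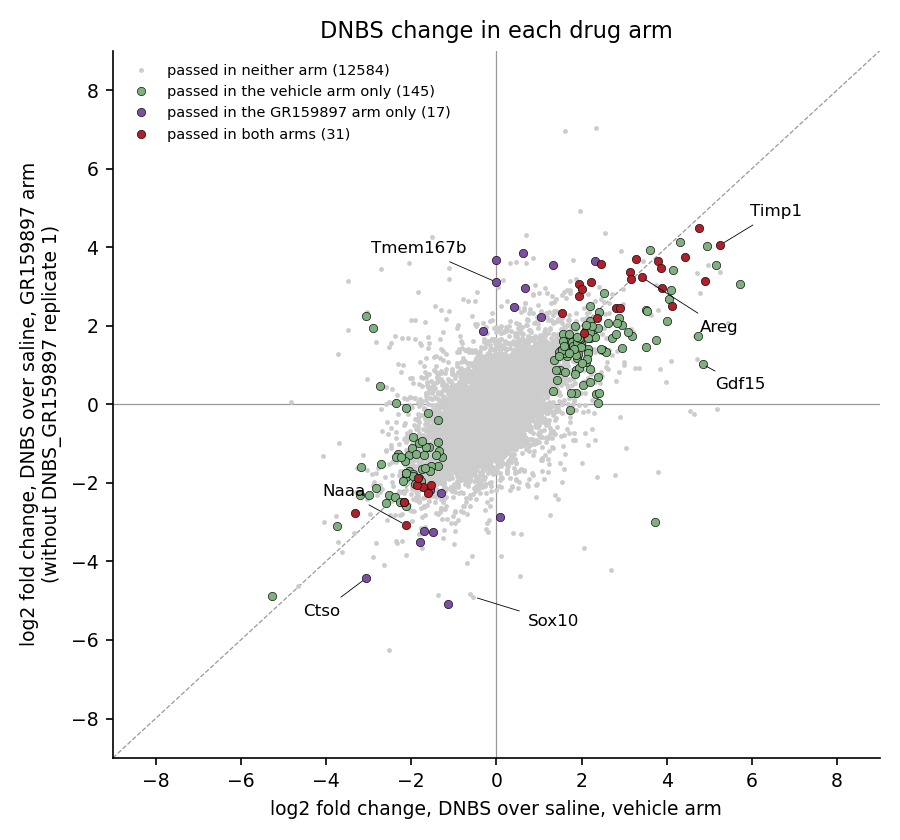
Log2 fold change of DNBS over saline for 12777 genes in the vehicle arm (horizontal axis) and in the antagonist arm without DNBS_GR159897 replicate 1 (vertical axis); colours mark the 31 genes that passed in both arms, 145 in the vehicle arm only and 17 in the antagonist arm only. The dashed line marks equal change; Gdf15 lies near 4.84 in the vehicle arm and 1.02 in the antagonist arm, a difference that did not pass.

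Whether the change itself differed between the arms was tested as an interaction. With all libraries 0 of 12777 genes passed in limma (457 had an unadjusted p below 0.05, and the smallest adjusted p was 0.0514). Without DNBS_GR159897 replicate 1 a single gene passed, Gas1 (0.00783% of genes, with 409 at an unadjusted p below 0.05). Gas1, a growth-arrest protein anchored in the membrane (chromosome 13 at 60174405 to 60177365), was at 1.35, 10.9 and 12.7 FPKM in the DNBS_GR159897 libraries and listed at 0 in the other 9 libraries of the series. Gas1 reached the filter of 1 FPKM in 3 libraries through this group alone, so it had to differ, and its test is no independent support. Its interaction had an adjusted p of 0.00913 without replicate 1 and of 0.957 with it. Its exons overlap those of Gm48488 on the opposite strand, and no fold is given against a group listed at 0. Tmem167b, a small membrane protein, was at 0.68, 0.13 and 0.54 FPKM in Saline_GR159897 and at 4.23, 12.3 and 10.4 FPKM in DNBS_GR159897. It was at 8.53 to 12.5 FPKM in the 6 libraries of the vehicle arm, so that the saline group of the antagonist arm was the low group. It rose by 2.70 ± 0.40 in the antagonist arm (adjusted p = 0.0152) and by 3.11 ± 0.35 without replicate 1 (adjusted p = 0.00546), and changed by 0.00 in the vehicle arm. Its interaction did not pass, with adjusted p of 0.765 and, without replicate 1, 0.0861.

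Gdf15, a stress cytokine, was at 0.46, 0.90 and 4.44 FPKM in Saline_GR159897 and at 1.14, 3.00 and 5.26 FPKM in DNBS_GR159897, so the groups overlapped. It changed by 0.61 ± 0.66 in the antagonist arm (1.02 ± 0.71 without replicate 1) and passed in neither fit, against 4.84 in the vehicle arm. The interaction of −4.23 did not pass (limma adjusted p = 0.874). Limd1, a LIM domain protein, had a pattern like that of Tmem167b, low in Saline_GR159897 alone, with an interaction of 3.13 that did not pass (adjusted p = 0.908). Jaml, an adhesion protein of leukocytes, and Kat7, a histone acetyltransferase, had interactions of −2.41 and −2.87 (both adjusted p = 0.765) and did not pass in the antagonist arm. The interaction of Sox10, −4.87, did not pass either (adjusted p = 0.957).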

How the data were processed

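Ribosome-bound RNA was pulled down through HA-tagged Rpl22 from dissected distal colon myenteric plexus of 12 mice, made into SMART-seq v4 and Nextera libraries and sequenced paired-end, per the labels' protocols. The authors deposited 1 table of FPKM values per assembled locus and library. Tools listed in the submitters' processing notes, without their roles, are HISAT2 2.0, StringTie 1.3, cutadapt 1.10 and FastQC 0.10.1. For the genome build, "not given in the sources used here" applies, and the depth is unknown. Of 99547 loci, the 24432 with an Ensembl transcript were used, 1 per gene symbol with the highest mean (24394 symbols, 902 of them merged loci), and 12778 had at least 1 FPKM in at least 3 libraries. A model with 4 group means was fitted to log2(FPKM + 1) over 12 libraries with limma 3.58.1 (R 4.3.3; trended, robust prior; 8 residual degrees of freedom), two-sided, with Benjamini-Hochberg adjustment and a threshold of 0.05, and again over the 11 libraries without DNBS_GR159897 replicate 1, where the DNBS group has 2 libraries. Gfap was blank in the Saline_Vehicle libraries, so its fit used 9 libraries and it entered neither the vehicle contrast nor the interaction. The procedure was tested on simulated data.

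The named genes were the 8 with the smallest p in each direction whose groups did not overlap, in each fit, leaving out predicted genes; up to 4 per gene list by p without replicate 1; 14 fixed genes; and the 4 leading interactions in each direction. The members and the 36 gene lists were chosen with earlier results of these data known. Of 165 named genes, 163 had a position in GENCODE M21 (GRCm38, through transcript identifiers), and exons of 42 overlap another gene (38 on the opposite, 6 on the same strand); the sources used here do not say whether strand was used in counting. Merged loci were not counted as list members. Some named genes are not reported here. Promoters are from RefSeq (GRCm38.p6). Python 3.11.15, pandas 2.3.3, numpy 2.4.6 and matplotlib 3.10.9 were used for tables and plots. Alternatives covered the libraries left out, the samples in the fit, pseudocount, filter, rescaling, sex, library weights, prior and a replicate block.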

Additional observations from a re-analysis of the deposited data

Results flagged for a closer look

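The difference between the DNBS change under GR159897 and that under vehicle passed for Gas1 alone, and only without DNBS_GR159897 replicate 1 (limma interaction, adjusted p = 0.00913; 0.957 with all libraries). Gas1 was listed at 0 in all 9 libraries outside the DNBS_GR159897 group and at 1.35, 10.9 and 12.7 FPKM within it, so higher in 3 of 3 libraries. It reached the filter of 1 FPKM in 3 libraries through that group alone, so it had to differ, and its test is no independent support. With a replicate block in the fit without that library no interaction passed.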

How the results depend on the processing

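The count of 176 genes became 9 in the antagonist arm alone, 42 with a pseudocount of 0.1, 18 with no filter, 91 after rescaling, 25 with sex as a term and 2158 with library weights; it ranged from 4 to 604 over the 12 fits without a single library. The stricter filter of 5 FPKM gave 121 and the plain prior 198. The count of 48 without DNBS_GR159897 replicate 1 became 24 in the antagonist arm alone and ranged from 18 to 41 over the 5 fits without a further library (18 without DNBS_GR159897 replicate 3, 20 and 24 without Saline_GR159897 replicates 1 and 3); rescaling gave 60 and a sex term 36. The count of 0 interactions became 2 with a pseudocount of 0.1, 1 after rescaling and 5 with library weights, and ranged from 0 to 2 over the fits without a single library. The labels do not say whether replicate numbers pair the samples. Deviations from the group mean correlated at −0.06 to 0.06 between same-numbered libraries of the arm and at −0.16 to 0.13 between differently numbered ones. With 3 libraries per group these correlations cannot decide it. A replicate block gave 31 genes, and 21 without replicate 1. The causes were not tested, beyond the fewer samples or genes in some fits. No named gene that passed changed sign in any alternative, and 1 of 28 never lost its call; of the 137 that did not pass, 27 changed sign in some alternative. With 3 libraries per group and unknown depth, a gene that did not pass is not shown to be unchanged, and calls in the sex-unbalanced groups that a sex term removes cannot be told apart from sex.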

Other observations

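Some loci outside the named genes stood out, chosen after their values were seen. Gm42418, a locus at ribosomal RNA repeats, was listed at 0 in the 3 saline libraries of the antagonist arm and at 1192, 180 and 94.0 FPKM in DNBS replicates 1, 2 and 3. Lpar1, a receptor of lysophosphatidic acid, was at 221, 18.6 and 39.0 FPKM in saline and at 0.84, 2.55 and 4.38 FPKM after DNBS, and passed with all libraries only (−4.09, limma adjusted p = 0.0375; −3.67, adjusted p = 0.0894 without replicate 1). Aldoc, a brain-type aldolase, and Serpinh1, a chaperone of collagen, passed with all libraries only as well, at −3.78 and −4.00, and were at −3.48 and −4.03 without replicate 1. Il11ra1, the receptor of interleukin-11, was even within each group, at 60.3, 62.1 and 58.8 FPKM in saline and 13.5, 18.7 and 15.1 FPKM after DNBS (−1.88, adjusted p = 0.0417; −1.79, adjusted p = 0.0603 without replicate 1). Of the 176 calls 41 were predicted genes or clones, and 9 of the 48.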
